A study of Petrolisthes cinctipes with 164 samples.

Results

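Porcelain crabs of the species Petrolisthes cinctipes, 12 h into recovery from a heat stress, were compared with control crabs sampled at the same hour. The members were chosen by the sample titles, as every channel whose title names the 12 h recovery time point, which gave 20 of the 164 samples of the series. These 20 samples are the channels of 10 arrays and come from 10 of the 82 crabs, 5 heat stressed and 5 control. All crabs were collected in the field. The heat stressed crabs were warmed from 11 to 30 °C over 4 h, the control crabs were kept at 11 °C for those 4 h, and both groups then recovered together in water of 11 °C. The labels give no age, sex or named tissue. Each heat stressed crab shared its arrays with the control crab of equal replicate number, and such a couple is called a pair here. On array a of a pair the heat stressed crab was labelled with Cy5 and the control crab with Cy3, and on array b the dyes were exchanged. For both channels of array b of pair 5 the sample description gives the opposite treatment from the title, while the crab numbers follow the title, which was used.

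Animals of the intertidal zone are warmed when the tide leaves them exposed, and heat that damages proteins is known to bring on the heat shock response, in which cells make chaperones that refold or hold damaged proteins. After the stress ends, transcripts of this response commonly fade while those for repair and for metabolism may follow another course, so a late sampling hour shows what is still changed after the acute phase. The arrays carried cDNA probes that the deposited table identifies by plate position only, so a probe such as Pc04Ni13 is reported under that identifier. Gene names were at hand for 6 probes, from the annotation displayed in the study. These were 5 probes for ATP synthase subunit a, the part of the mitochondrial ATP synthase that forms its proton channel, and 1 for cytochrome c oxidase subunit 2, a part of the enzyme that passes electrons to oxygen at the end of the respiratory chain.

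The deposited values were log2 intensities. The median of a channel at 12 h lay between 7.24 and 8.82, the highest value of a channel between 15.5 and 16.5, and the medians of both channels of an array differed by at most 0.050. Precision is limited by the number of pairs, which is 5. Arrays a and b of a crab were averaged, and the level of the control crab was subtracted from that of the heat stressed crab in each pair. This difference is called the differential, in log2 units, so that a differential of 1 stands for a doubling of the intensity in the heat stressed crab. The median differential over all probes lay between -0.015 and 0.019 in the 5 pairs.

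Heat stress left more probes raised than lowered at 12 h. Of 13818 probes, 46 had a higher level in the heat stressed crabs (0.333% of those tested) and 18 had a lower one (0.130%), in limma on the 5 pairs with Benjamini-Hochberg adjustment and an adjusted p under 0.05, together 64 (0.463%). At an unadjusted p under 0.05 the counts were 581 (4.20%) and 487 (3.52%). These calls need the title's treatment for array b of pair 5. With the treatment in its description, which exchanges the crabs of that array, limma called 0 higher and 0 lower, with 449 and 396 at an unadjusted p under 0.05. The rises were also larger than the falls. The median differential of the 46 raised probes was 1.24, with 30 of them at 1 or more (as were 0.239% of all probes) and 10 at 2 or more, while that of the 18 lowered probes was -0.62, with 2 at -1 or less. Over all probes the median was 0.0029. For all 46 raised and all 18 lowered probes the differential had the same sign in 5 of 5 pairs. As many as 665 probes were above 0 in 5 of 5 pairs (4.81%) and 531 below 0 (3.84%), so the sign alone does not set the called probes apart. Without pairing, limma on the same 10 crabs called 17 probes higher and 0 lower, where 70 and 25 had an unadjusted p under 0.05. Leaving out pair 2 raised the counts to 73 higher and 43 lower. Without pair 1 they were 29 and 2, without pair 3 23 and 3, without pair 4 28 and 3, and without pair 5 24 and 0, so the count of lowered probes rested on each of these 4 pairs.

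**Figure D1:**
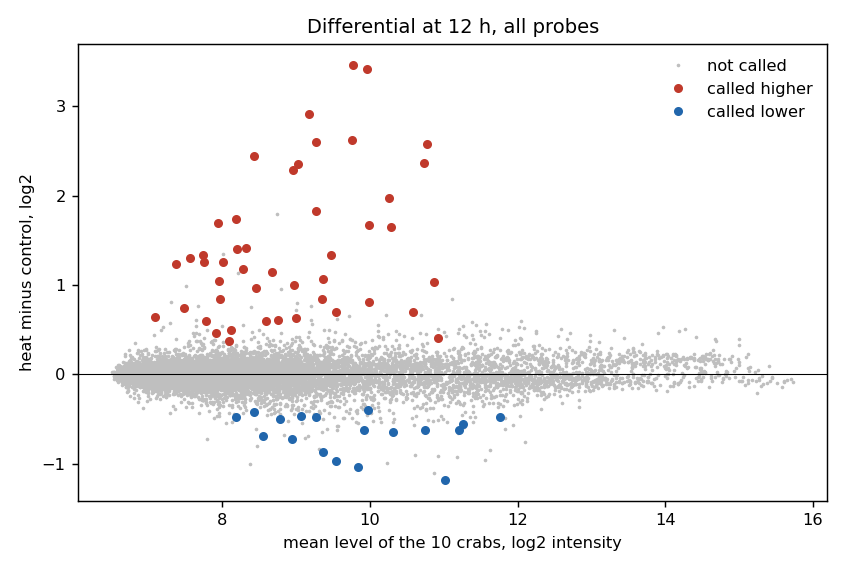
Differential of all 13818 probes at 12 h (vertical axis, mean of 5 pairs, log2) against the mean level of the 10 crabs (horizontal axis, log2 intensity), with the 46 probes called higher in red and the 18 called lower in blue. The raised probes reach 3.46, while the lowest differential of a lowered probe is -1.18. By mean level, 22 of the 46 raised and 13 of the 18 lowered probes are among the brightest 25% of all probes. Among the dimmest 25% there are 0 raised and 0 lowered probes.

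The probe with the largest rise was Pc04Ni13. Its level was 11.1, 11.7, 12.0, 11.7 and 11.0 in the heat stressed crabs of pairs 1 to 5 and 7.69, 8.39, 8.20, 8.17 and 7.77 in their control crabs. Every heat stressed crab was thus far above every control crab, with no control at even 9 on this scale. The differential was 3.46 with a standard error of 0.091 (adjusted p = 6.0e-05), which is an 11.0-fold higher intensity, and it varied between pairs by an SD of only 0.23 (n = 5 pairs). Pc01Hi06 had nearly the same rise with a wider spread. Its heat stressed crabs measured 10.7, 11.7, 12.97, 11.5 and 11.4 against 7.48, 8.72, 8.69, 7.78 and 8.59 in the controls, and its differential was 3.42 ± 0.60 (SD, n = 5 pairs; adjusted p = 0.0023). The most uniform rise among the 10 largest was that of Pc32Hb04, at 9.20, 9.98, 9.74, 9.60 and 9.75 in heat stress and 7.07, 7.56, 7.24, 7.03 and 7.14 in control. The groups were clearly apart for this probe too, and its differential was 2.45 ± 0.19 (SD, n = 5 pairs; adjusted p = 7.3e-05). Pc03Nk19 rose by 2.58 (adjusted p = 7.3e-05), from a control mean of 9.48, the highest among these but for Pc04Nd05, which rose by 2.36 from a control mean of 9.55 (adjusted p = 0.0034).

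Pc28Ge22 and Pc33Hn10 rose by similar amounts but less evenly. Pc28Ge22 measured 9.34, 10.9, 11.3, 10.6 and 10.7 in the heat stressed crabs and 7.44, 8.57, 8.04, 7.52 and 8.25 in the controls, which leaves the lowest heat stressed crab above the highest control. Its differential was 2.60 ± 0.55 (SD, n = 5 pairs; adjusted p = 0.0036). Pc33Hn10 measured 10.4, 11.3, 11.1, 11.1 and 11.5 in heat stress and 9.35, 8.25, 8.26, 8.19 and 8.20 in control. The control crab of pair 1 stood more than 1 log2 unit above the other controls, and the heat stressed crab of that pair was the lowest of its group. The differential of Pc33Hn10 was therefore 1.06 in pair 1 and from 2.82 to 3.26 in the others (mean 2.62, SD 0.89, adjusted p = 0.028). The remaining probes among the 10 largest rises were Pc04Nb07 at 2.91, Pc35Hd22 at 2.36 and Pc03No23 at 2.29, with adjusted p = 0.0027, 0.00064 and 0.011. For 28 of the 46 raised probes the lowest heat stressed crab lay above the highest control crab, which was the case for 37 of all 13818 probes (0.268%).

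**Figure D2:**
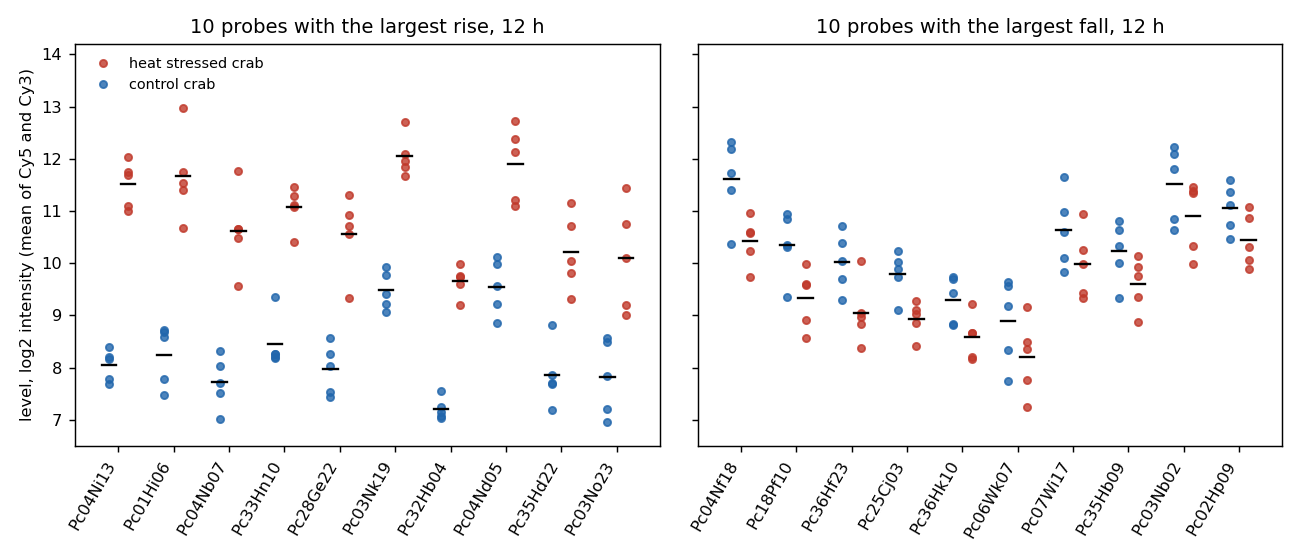
Level of every crab at 12 h (log2 intensity, Cy5 and Cy3 averaged) for the 10 probes with the largest rise, left, and the 10 with the largest fall, right. Points are crabs, 5 heat stressed in red and 5 control in blue, and black bars are group means. The groups are apart for all 10 probes on the left, while heat stressed and control crabs overlap for every probe on the right.

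Among the lowered probes, Pc04Nf18 had the largest fall. It measured 10.6, 9.74, 10.2, 10.6 and 11.0 in the heat stressed crabs and 11.4, 10.4, 11.7, 12.2 and 12.3 in the controls of the same pairs. The control of pair 2 lay within the range of the heat stressed crabs, so the groups overlapped, yet the heat stressed crab was the lower one in each pair. The differential was -1.18 ± 0.44 (SD, n = 5 pairs; adjusted p = 0.039). Pc18Pf10 measured 9.58, 8.56, 8.91, 9.60 and 9.99 in heat stress against 10.9, 9.35, 10.3, 10.3 and 10.8 in control, with a differential of -1.03 ± 0.34 (SD, n = 5 pairs; adjusted p = 0.030). Pc36Hf23 fell by 0.97 (adjusted p = 0.019), Pc25Cj03 by 0.86 (adjusted p = 0.039) and Pc36Hk10 by 0.72 (adjusted p = 0.031). The most uniform fall among the 10 largest was that of Pc07Wi17, at -0.64 ± 0.098 (SD, n = 5 pairs; adjusted p = 0.0072), followed by Pc35Hb09 at -0.62 ± 0.099 (adjusted p = 0.0081). Pc03Nb02 and Pc02Hp09 were at -0.62 each (adjusted p = 0.016 and 0.039), and Pc06Wk07, at -0.69, passed narrowly (adjusted p = 0.04989). In 0 of the 18 lowered probes did the groups of crabs separate, and 4 of all 13818 probes had every heat stressed crab below every control crab (0.0289%). Just past the threshold lay Pc28Ga02 at 0.47 (adjusted p = 0.053) and Pc04Nc13 at -0.69 and Pc02He02 at -0.995 (adjusted p = 0.054 for each), which were not called.

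Since both arrays of a pair hold the same RNAs with the dyes exchanged, each call could be read in either dye orientation. All 46 raised probes had a mean differential above 0 on arrays a and on arrays b, with medians of 1.16 and 1.41. Of the 46, 43 were above 0 on each of the 10 arrays. The probes were called from the mean of these same arrays, so this likeness is in part built in. Among all 13818 probes, 5540 had the same sign on arrays a and on arrays b. For Pc04Ni13 the means were 2.83 on arrays a and 4.10 on arrays b. The lowered probes differed more between the orientations. Their median was -0.32 on arrays a and -0.996 on arrays b, 11 of the 18 were at least 2 times as far from 0 on arrays b as on arrays a, and 2 had opposite signs. Pc07Wi17 was 1 of these 2, at 0.079 on arrays a and -1.36 on arrays b, and Pc18Pf10 was at -0.15 and -1.91. In contrast, Pc04Nf18 was at -1.14 and -1.22, Pc35Hb09 at -0.62 and -0.63, and Pc36Hf23 at -0.81 and -1.13. Over all probes 166 had 1 sign on all 10 arrays (1.20%), and 8 of the lowered probes were among them. Every pair held both orientations. A dye effect would cancel in the mean differential only if it had equal size on both arrays, which was not tested.

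**Figure D3:**
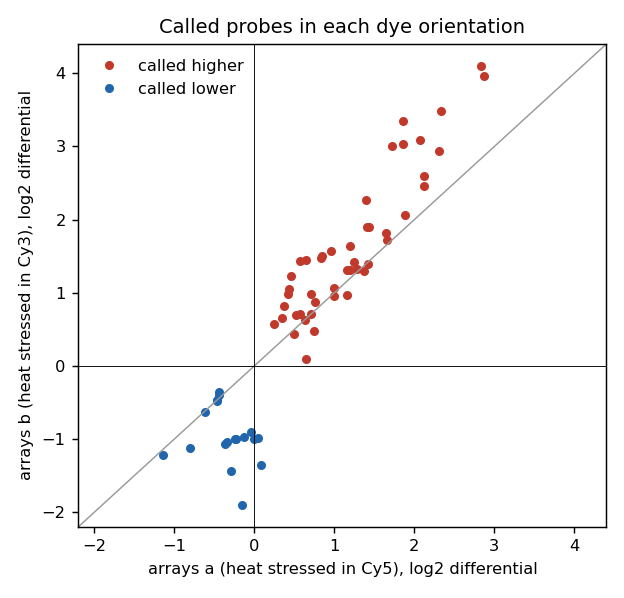
Mean differential of the called probes on the 5 arrays a (horizontal axis, heat stressed crab in Cy5) and on the 5 arrays b (vertical axis, heat stressed crab in Cy3), log2, with a grey line of equality. Raised probes, red, lie above 0 on both axes, while many of the lowered probes, blue, lie near -1 on arrays b and close to 0 on arrays a.

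The 6 probes with a gene name had mean differentials below 0, and 0 of the 6 passed the adjusted threshold in limma. Pc01Hc13, a probe for ATP synthase subunit a, measured 10.1, 10.6, 10.4, 9.35 and 11.2 in heat stress and 10.7, 11.1, 11.9, 10.9 and 12.5 in control. Its heat stressed crab was the lower one in 5 of 5 pairs, by 0.52 to 1.55, although the groups overlapped. The differential was -1.10 ± 0.49 (SD, n = 5 pairs; adjusted p = 0.072). Pc03Nd19, another probe for this subunit, measured 11.5, 11.1, 11.2, 10.8 and 10.8 in heat stress and 12.1, 11.6, 12.6, 12.1 and 11.8 in control, so that every heat stressed crab lay below every control crab. Its differential was -0.96 (adjusted p = 0.063). The remaining probes for the subunit were Pc03Ni14 at -0.93 (adjusted p = 0.15), Pc04Nk04 at -0.90 (adjusted p = 0.13) and Pc04Nk13 at -0.47 (adjusted p = 0.49). In pairs 1 and 2 these 5 probes differed between the crabs by less than in pairs 3, 4 and 5, and Pc04Nk13 was at 0.068 in pair 2. Pc01Hd14, for cytochrome c oxidase subunit 2, was at -0.46 (adjusted p = 0.14), below 0 in 5 of 5 pairs. All 6 had an unadjusted p under 0.05, as did 3.52% of all probes in this direction. The study, which looked for genes affected at 0.5 h, had picked probes of this kind by a negative differential at that hour. It then used the shape of their courses over the time points of this series. The probes are thus no independent sign of a fall. Of the unnamed probes listed beside them, Pc04Ne17 was at -0.91 (adjusted p = 0.17) and Pc03No20 at -0.28 (adjusted p = 0.82). Pc04Nf18, which was called, was compared with each of the 6. In the 36 pairs sampled at other hours its differential had a Pearson correlation of 0.98 with Pc03Ni14 and 0.97 with Pc03Nd19 and Pc04Nk04. The correlation was 0.96 with Pc01Hc13, 0.76 with Pc04Nk13 and 0.62 with Pc01Hd14. Without replicate 5 of 0.5 h and replicate 1 of 6 h these values were, in the same order, 0.97, 0.93, 0.93, 0.92, 0.70 and 0.41. They are descriptions over pairs that each share their own arrays.

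The 5 pairs were not alike over the whole array. Across probes, which are not independent replicates, the differentials of pairs 3, 4 and 5 correlated with one another by r = 0.51 to 0.57. Pair 1 correlated with pair 2 by 0.33, with pairs 3 and 5 by 0.20 and with pair 4 by 0.024, and pair 2 correlated with pairs 3, 4 and 5 by -0.056, -0.24 and -0.058. Pair 2 held 126 probes at a differential of 1 or more, against 45 to 56 in the other pairs. On the raised probes, which were called from these same pairs, pair 2 had a median of 1.10 against 1.02 to 1.42 in the others. Arrays a and b of pair 1 correlated by r = -0.23 over all probes and those of pair 5 by -0.019, while the other pairs reached 0.38 to 0.41. Over the 64 called probes, which were chosen on these arrays, the same correlations were between 0.77 and 0.92.

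Pair 2 also had the most probes far from the other pairs. In 249 probes the differential of pair 2 was 1 or more above the mean of the other pairs, and in 43 it was 1 or more below. For the other pairs these counts were 9 to 23 and 9 to 46. Of these 249 probes 1 was called, where 64 of all 13818 probes were called (0.463%). The 3 probes with the largest SD between pairs all belonged here. Pc01Hh10 had differentials of -0.38, 1.68, -1.44, -1.41 and -0.94 in pairs 1 to 5, from levels of 10.6, 12.0, 9.83, 10.5 and 10.8 in heat stress and 10.9, 10.3, 11.3, 11.9 and 11.8 in control. Its heat stressed crab of pair 2 was the highest of all 10 crabs and the control crab of pair 2 the lowest control. Pc01Hh09, from the neighbouring well, went from -1.28 to 1.78 and Pc07Wl12 from -1.44 to 1.49, with pair 2 highest in both. Over the 249 probes, which were chosen by this measure, the median differential was 0.94 in pair 2 and -0.052, -0.45, -0.54 and -0.36 in pairs 1, 3, 4 and 5. Their median level in pair 2 was 10.4 in heat stress and 9.53 in control. In the other pairs it was 9.16 to 10.1 and 9.48 to 10.5. Both crabs of pair 2 were also the brightest over all probes, at medians of 8.09 in heat stress and 8.12 in control. The other crabs were at 7.43 to 7.76. Relative to these medians over all probes, the control crab of pair 2 was the lowest control on the 249 probes. The heat stressed crab of pair 2 lay within its group. Which crab stood apart was not tested.

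**Figure D4:**
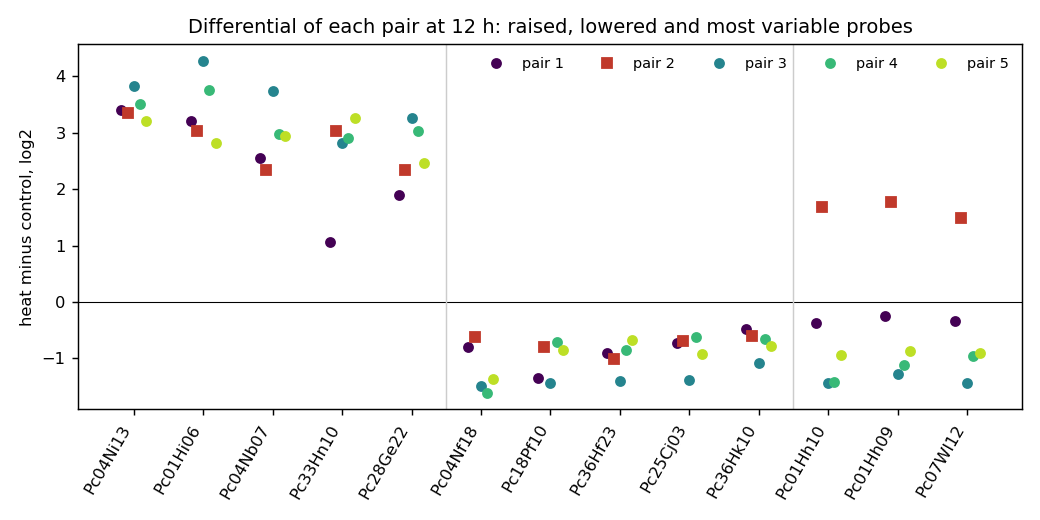
Differential of each pair at 12 h (log2) for 5 raised, 5 lowered and the 3 most variable probes, with pair 2 as red squares. The raised and lowered probes were called from these pairs, and pair 2 lies apart, at 1.49 to 1.78, for Pc01Hh10, Pc01Hh09 and Pc07Wl12.

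The other time points hold other crabs, so the probes called at 12 h could be read in them independently, each time point being fitted on its own pairs with the treatments of the titles. The descriptions also give the opposite treatment for array b of pair 5 at 18, 24 and 30 h, both arrays of pair 2 at 4 h and both arrays of pairs 3 and 4 at 6 h. With the treatments of the descriptions, an alternative chosen after seeing the data, limma called 0 probes at each of 18, 24 and 30 h, where 340, 436 and 639 were higher and 448, 488 and 261 lower before adjustment at 0.05. The median differential of the 46 raised probes was then 1.28, 1.01 and 1.15 at these hours, but -0.44 at 4 h and -0.96 at 6 h, so its sign at 4 and 6 h depends on which label holds. At 18 h, 30 of the 46 raised probes were also called higher, which is 65.2% of the 46 and 88.2% of the 34 probes called higher at 18 h (0.246% of those tested). At 30 h 19 of them were called, 41.3% of the 46 and 90.5% of the 21 called there (0.152%). At 24 h it was again 19, or 82.6% of the 23 called (0.166%), at 2 h 18, or 64.3% of 28 (0.203%), and at 1 h 13, or 43.3% of 30 (0.217%). At 0.5, 4 and 6 h limma called 0 probes, with 357, 151 and 109 higher and 380, 406 and 217 lower before adjustment at 0.05. Without replicate 5 of 0.5 h, a pair that ran against the others, 51 probes were called higher there, of which 26 were among the 46 raised, and 46 were called lower, of which 6 were among the 18, whereas leaving out replicate 1 of 6 h left that count at 0. With the treatments of the descriptions, 4 of the 46 raised probes were above 0 at 4 h and 0 at 6 h. By the titles, the sign of most of the 46 carried over even where no call was made. All 46 were then above 0 at 2, 6, 18, 24 and 30 h. Of the 46, 40 (87.0%) kept their sign at all 8 other time points, which 2.68% of all probes did. Of the 18 lowered probes, 4 were called among the 19 lower probes of 18 h (0.138%), 2 among the 12 of 2 h (0.0868%) and 0 among the 11 of 24 h (0.0796%), with 0 called lower at 1 and 30 h (limma, 175 and 198 before adjustment at 0.05), and 7 of the 18 (38.9%) kept their sign at all 8.

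The hour of the largest mean differed between the raised probes, which was not tested. The largest mean came at 1 h for 14 of the 46, at 30 h for 16, at 18 h for 13, at 24 h for 1 and at 12 h for 2, Pc03Ng12 and Pc31Hj03. Pc28Ge22 was highest early, with 4.06 ± 0.16 (SD, n = 4 pairs) 1 h into recovery and 3.72 after 2 h. It came to 2.60 by 12 h, 3.55 by 18 h, 2.11 by 24 h and 1.47 by 30 h, where its pairs spread from 0.24 to 4.01. Pc33Hn10 likewise went from 3.36 at 1 h to 2.62 at 12 h and 2.03 at 30 h. Pc04Ni13 instead had 3.62 at 1 h and 3.46 at 12 h, then 4.35 at 18 h and 4.15 at 30 h. Pc32Hb04 rose by 2.13 at 1 h, 2.45 at 12 h and 3.20 at 18 h. The means of these 4 probes at 4 and 6 h lay below those at 12 h, and the pairs of those hours were far apart. For Pc04Ni13 the 3 pairs of 4 h ranged from -0.46 to 2.83 and the 4 pairs of 6 h from -3.57 to 4.37, by the titles whose treatment the descriptions reverse for some of these pairs.

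The means of the lowered probes also differed in their course, and early hours were not tested against late ones. Pc04Nf18 was lowest at 1 and 2 h, at -1.51 and -1.43, and was at -1.18 at 12 h and -0.53 at 30 h. Pc36Hk10 was also lowest at 1 and 2 h, at -1.08 and -0.93, and was at -0.72 at 12 h. It did not fade steadily, with -0.92 at 18 h, -0.79 at 24 h and -0.59 at 30 h. In contrast, Pc18Pf10 had its lowest means late, with -1.03, -1.33, -1.60 and -2.41 from 12 to 30 h. Before that it varied, from -0.41 and -0.65 in the earliest samples to 0.078 at 2 h, -1.20 at 4 h and 0.20 at 6 h. Pc36Hf23 and Pc25Cj03 were also lowest at 30 h, with -1.61 and -1.94. The pairs of Pc18Pf10 had both signs at 0.5, 2, 6 and 18 h. At 18 h the 5 pairs of Pc18Pf10 ranged from -2.85 to 1.57, while at 12 h they lay between -1.44 and -0.70. Pc18Pf10 was called at 12 h only (adjusted p = 0.41 at 30 h), as were 13 of the 18 lowered and 8 of the 46 raised probes.

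**Figure D5:**
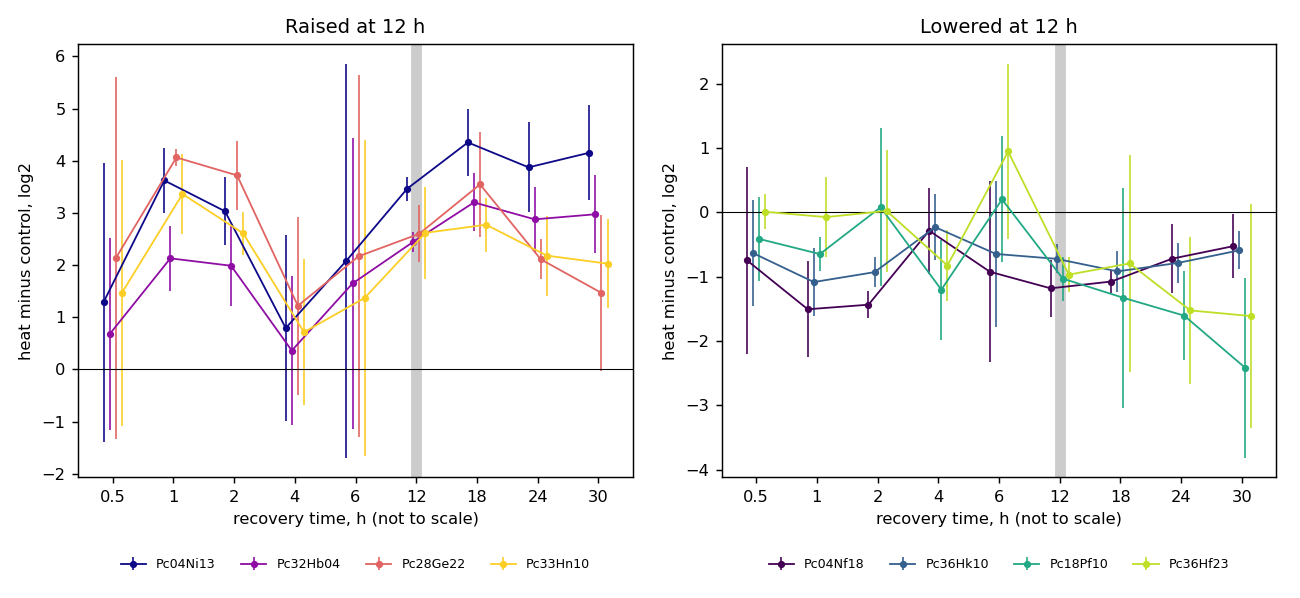
Mean differential (log2) of 4 raised probes, left, and 4 lowered probes, right, at each of the 9 recovery times, with 12 h shaded. Bars are the SD over the 3 to 5 pairs of a time point, and points are shifted sideways for legibility. Pc04Ni13 and Pc32Hb04 are higher at 18 h than at 12 h, Pc28Ge22 is highest at 1 h, and Pc18Pf10 is lowest at 30 h with wide bars.

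A direct test of the differential at 12 h against that at 2, 6 or 18 h passed for 0 of 13818 probes in each case (limma on the pairs of both time points, Benjamini-Hochberg adjustment), while 402 (2.91%), 423 (3.06%) and 593 (4.29%) were below 0.05 before adjustment. The courses described above are thus means with their spread, and their differences from 12 h were not tested at the remaining hours. For Pc28Ge22 the differential at 12 h was lower than at 2 h by 1.12, with a 95% interval from -1.86 to -0.38 for the difference (unadjusted p = 0.0068, adjusted p = 0.98). For Pc04Ni13 the differential at 12 h was lower than at 18 h by 0.89 (interval from -1.49 to -0.29, adjusted p = 0.94). For Pc06Wk07 it was lower than at 6 h by 1.40 (interval from -1.94 to -0.87, adjusted p = 0.9999). The comparison with 6 h holds by the titles only, since the descriptions reverse the treatment for pairs 3 and 4 of that hour. Replicate 1 of 6 h also ran against the others on most of the raised probes. Without replicate 4 of 2 h a single probe passed against 2 h, Pc21Ge13, with a differential of 0.61 at 12 h and 2.34 in the other 4 pairs of 2 h (adjusted p = 0.0029, against 0.47 with all pairs). It lies outside the rule for naming and was picked after its value was seen.

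Likeness between the called probes was measured in other crabs. The median correlation between members over the same 36 pairs was 0.66 for the raised and 0.48 for the lowered probes, and -0.0040 between all probes. Leaving out replicate 5 of 0.5 h and replicate 1 of 6 h, where most of the raised probes were below 0, gave 0.43, 0.34 and -0.0039. For Pc04Ni13 the most similar of all probes were Pc01Hi06, Pc03Nk19 and Pc32Hb04 (r = 0.98, 0.97 and 0.97), and each was itself among the 10 largest rises at 12 h. Pc28Ge22 was most like Pc34Hj10 (r = 0.96), which rose by 1.69 (adjusted p = 0.0038). Pc33Hn10 was most like Pc31Hn17 (r = 0.97), which rose by 1.67 (adjusted p = 0.0039). These correlations are descriptions and include those pairs. By the letter after the plate number, whose meaning is not given in the sources used here, the share of raised probes was 1.17% for N (9 of 768), 0.501% for H (25 of 4992), 0.304% for G, 0.174% for W, 0.0868% for C and 0 of 2298 for P, against 0.333% of all probes. The share of lowered probes was 0.521% for N and 0.0434% to 0.174% for the others, against 0.130% of all.

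Adjoining plate wells also recurred, since some raised probes came from adjoining wells of a plate. These were Pc01Hi05 and Pc01Hi06, Pc01Hn06 and Pc01Hn07, Pc04Nb06 and Pc04Nb07, Pc08Hk24 and Pc08Hl24, and Pc31Hn17 and Pc31Ho17. Of the 173 wells beside a raised probe, 10 held a raised probe (5.78%, against 0.333% overall). The other wells beside raised probes had a median differential of -0.0031, close to the 0.0029 of all probes. Pc01Hi05 rose by 0.84 beside Pc01Hi06 at 3.42, and Pc04Nb06 by 0.60 beside Pc04Nb07 at 2.91, while Pc31Hn17 and Pc31Ho17 rose by nearly the same amount, 1.67 and 1.65.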

How the data were processed

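Total RNA was reverse transcribed into amino-allyl cDNA and coupled to Cy5 or Cy3 for cDNA arrays. Each channel has a log2 intensity for every probe in the table the authors deposited. The log2 scale was inferred from the values, and how background was corrected and channels were normalized is not given in the sources used here. No value was missing and 0 sample columns were left out.

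Arrays a and b of a crab were averaged, and the differential was tested in R 4.3.3 with the package limma 3.58.1, using lmFit with the pair as a block, eBayes and Benjamini-Hochberg adjustment over 13818 probes. Only the 12 h pairs entered because earlier results had shown pairs at 0.5, 4 and 6 h that differed from the others of their hour. Crabs of a pair were hybridised together, and after subtraction of group means they correlated by 0.74 to 0.90. The median between unequal numbers was -0.16. The subtraction itself draws that value below 0 when equal numbers correlate, so it is no separate contrast. Where nothing else is said, an adjusted p is from this fit, and standard errors are its moderated ones. Comparisons with 2, 6 and 18 h used the pair differentials of both times. Members, probe lists and tests were chosen with earlier results of these data known.

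Named were the 10 largest rises and falls past the threshold with 1 sign in all pairs, 12 probes followed before, and the 3 most variable, 31 in all; probes differing between time points would have been added, but 0 passed. Further probes were picked after their values were seen (partners, neighbours, those beside the threshold). The fits were tested on simulated data. Alternatives covered pairing, crabs in the fit, scaling, dye, dim probes, eBayes settings, thresholds, pairs left out and the label of array 5b, and 0.5 h without replicate 5, 6 h without replicate 1 and the descriptions' treatments at other hours were added after seeing the data. Plots used Python 3.11.15 and matplotlib 3.10.9.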

Additional observations from a re-analysis of the deposited data

Results flagged for a closer look

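Among the 31 named probes, 2 had a pair whose differential stood apart from the other 4 at 12 h, judged by its gap to the nearest pair as a share of the whole range of the 5 pairs against a critical value of 0.71. For Pc33Hn10 the gap was 0.80 of the range, with pair 1 at 1.06. For Pc04Nd05 it was 0.77 of the range, with pair 2 at 3.16. Chance alone sets apart about 1 in 20 groups of 5 values taken at random. Most of the named probes were chosen by their values in these same pairs, so this rate need not hold for them. No named probe had a differential at 12 h that differed from 2, 6 or 18 h after adjustment.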

How the results depend on the processing

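With 46 higher and 18 lower probes in the paired fit, the counts moved as follows. Without the replicate block they were 17 and 0, from all 41 pairs 7 and 0, of which 5 were among the 46, from 18 groups of 82 crabs without the block 8 and 0, and with trend and robust eBayes 27 and 0. In these 4 limma fits 25, 278, 4 and 260 lower probes were below 0.05 before adjustment. With the treatment of array 5b from its description they were 0 and 0, with 449 and 396 at an unadjusted p under 0.05. A differential of at least 1 in addition left 30 and 2. Array b alone gave 30 higher, and array a alone 47 lower, of which 1 was among the 18. Quantile normalization gave 30 lower, leaving out the dimmest 25% of probes 29, and an adjusted p under 0.10 gave 46. Leaving out 1 pair gave 23 to 73 higher and 0 to 43 lower. For 12 h against 2 h, leaving out 1 pair gave 0 to 1 probes. Of the 46 raised probes, 0 were called at 0.5 h with all pairs and 26 without replicate 5, and the 30, 19 and 19 called at 18, 24 and 30 h all fell to 0 with the treatments of the descriptions, both chosen after seeing the data. The cause was not tested in any of these. Among the named probes, the direction turned once, for Pc07Wi17 at 0.079 from array a alone.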
